A study of Mus musculus with 2 samples.

Results

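Ubiquitin-conjugating enzymes and deubiquitinases, with the activating enzymes that precede them, were examined in epithelial cells of the colon, taken from 7-week-old mice of the inbred strain C57BL/6. Cells had been incubated with MIF, read here as the cytokine macrophage migration inhibitory factor, or with PBS, a buffered salt solution. RNA of each incubation was measured on 1 Affymetrix array, so no comparison below has a replicate or a test. How much MIF was used and for how long, how many animals gave cells and how the epithelium was isolated is not stated in the labels. Members were chosen by gene symbol, as genes whose names begin with Ube2, Usp, Uba, Uch or Otu, leaving out Ube2c, Usp18 and the Ubap and Ubac genes. This gave 68 genes, measured by 121 probe sets, of the 8721 named genes in the table.

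Ubiquitin is joined to proteins by a relay. An E1 enzyme activates it, an E2 (conjugating) enzyme carries it on a cysteine, and an E3 ligase picks the protein that receives it, which is then degraded by the proteasome or changes its location or partners. Deubiquitinases take the mark off again, and most belong to the USP, UCH and OTU families of cysteine proteases. Relatives of ubiquitin, such as NEDD8, SUMO and ISG15, have E1 and E2 enzymes of their own. In the gut epithelium these enzymes act on the turnover of surface receptors and ion channels, on signalling by Toll-like receptors and Wnt ligands, and on the rapid division of crypt cells.

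The deposited values are signals of probe sets on a linear scale, and the probe set of highest mean log2 signal stood for each gene. Signals below a floor of 232, the 40th percentile of both arrays, were raised to it. Of the 68 members, 52 lay above the floor on both arrays and 2 were below it only on the PBS array, which made 54 assessed genes. The other 14 were below the floor throughout. These were the E2 genes Ube2e2, Ube2l6 and Ube2t, the deubiquitinase genes Otub1, Otub2, Otud7b, Usp11, Usp20, Usp22, Usp27x, Usp36 and Usp38, and Uba1y and Ubald1. No direction is given for them.

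The 2 arrays were close in overall level, with median signals of 346 on the MIF array and 337 on the PBS array. Of 17 epithelial markers, 16 were in the table and all 16 lay above the floor, at 2061 to 13874 on the MIF array and 2036 to 14619 on the PBS array, so the defining markers of the labelled cell type were present. Of these 16, 3 were higher and 13 lower on the MIF array, all within 1.2-fold, where 46.7% of all assessed genes were higher. Markers of some other cells differed more. Of 8 fibroblast markers, 3 were assessed and higher on the MIF array, Dcn, at 678 on the MIF array and 235 on the PBS array, and Col3a1 and Vim, which passed the floor on the MIF array alone. The other 5 lay under the floor, and the raw signals of all 8 summed to 2074 on the MIF array and 808 on the PBS array. Of 6 T and NK cell markers in the table, Gzma and Gzmb were assessed and lower on the MIF array. The other 4 lay under the floor, and all 6 summed to 917 on the MIF array and 1690 on the PBS array. Of the myeloid and B cell markers, Cd14 and Xbp1 were assessed and differed by -0.01 and 0.02. Lyz2, which passed the floor on the MIF array alone, gave a bound of 0.07. None of these markers was at 0. Their part in the differences below was not tested, and fewer cells of a type and less RNA per cell cannot be told apart in such bulk samples.

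Member genes differed between MIF and PBS about as much as all genes did. Of 54 members, 45 (83.3%) lay within 1.2-fold, where 86.9% of all assessed genes did, and the SD of the log2 difference was 0.19 over both the members and all genes above the floor on both of the arrays. At 1.2-fold or more, 6 members were higher on the MIF array, namely Ube2d2a, Ube2w, Usp33, Usp53, Otud5 and Usp24, and 3 were lower, namely Usp2, Ube2s and Uba7. The 6 higher members were 11.1% of those assessed, where 6.82% of all 5837 assessed genes reached that size, and the 3 lower members were 5.56%, where 6.29% of all genes did. No member reached 1.5-fold, and 1.1% of all genes did, so nothing is read from that count. With the floor at the 60th percentile the higher members were 4.88%, where 4.94% of all genes were, and with no floor 13.2%, where 15.6% were, so the larger share on the MIF side depended on the floor. The only error that these arrays hold is the spread between probe sets of the same gene, a pooled SD of 0.15 on the log2 scale over 1800 genes and likewise 0.15 over the 21 members that have several probe sets above the floor. The 1.2-fold threshold, a log2 difference of 0.26, is less than 2 of these SDs.

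More members had small differences towards MIF than towards PBS. Of the 54 members, 34 (63.0%) had a higher signal on the MIF array, against 46.7% of all assessed genes. These include Usp39 and Usp49, whose direction was fixed because they passed the floor on the MIF array alone, and above the floor on both of the arrays 32 of 52 members (61.5%) were higher, against 46.5% of all such genes. The median log2 difference, MIF minus PBS, was 0.07 over the members and -0.01 over all genes. At 1.1-fold or more, 20 members (37.0%) were higher and 9 (16.7%) were lower, where 18.5% and 20.2% of all genes were higher and lower. The 20 include Usp39, which could only come out higher. Among the deubiquitinases 22 of 31 were higher, or 20 of 29 without Usp39 and Usp49, with a median of 0.09 in each case, and among the E2 genes 11 of 21 were higher, with a median of 0.06. The difference between the E2 genes and the deubiquitinases was not tested.

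**Figure D1:**
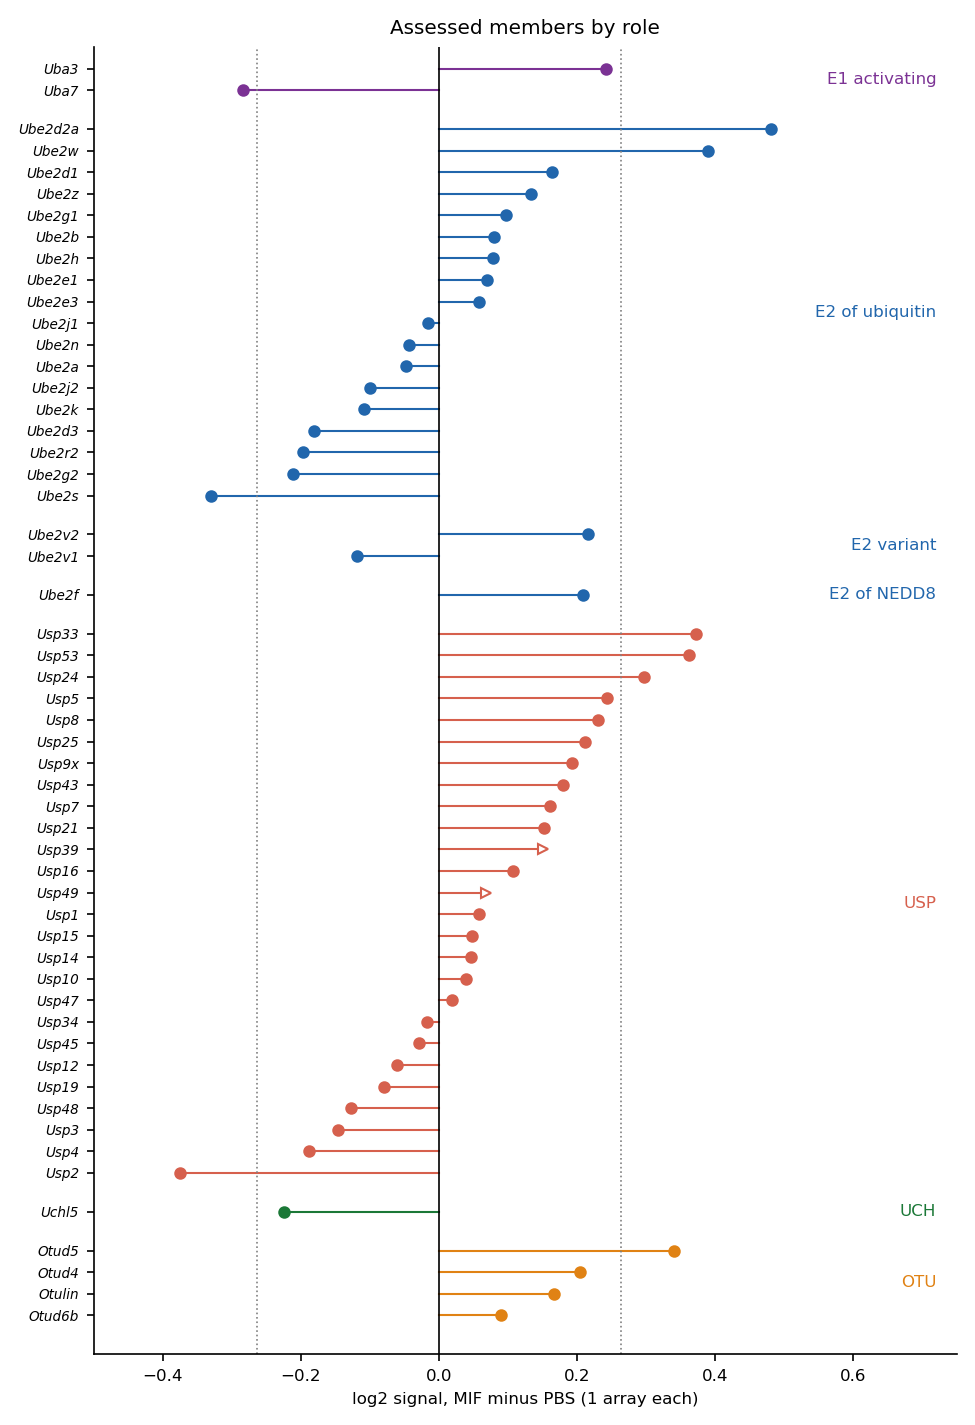
Difference in log2 signal, MIF minus PBS, (horizontal axis) for the 54 assessed members, grouped by role, with 1 array per incubation. Filled points are genes above the floor on both arrays, open triangles are lower bounds for the 2 genes under the floor on the PBS array, and dotted lines mark 1.2-fold; 6 members lie beyond the line on the MIF side and 3 on the PBS side.

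Signal strength moved with direction on these arrays. When all assessed genes were divided into 4 groups of nearly equal size by mean signal, the share higher on the MIF array was 51.9% in the dimmest group, 51.5% and 46.7% in the next groups and 36.9% in the brightest. Members higher on the MIF array numbered 7 of 8, 12 of 17, 11 of 19 and 4 of 10 over the same groups, from dim to bright. The 7 of 8 in the dimmest group include Usp39 and Usp49, whose direction was fixed by the floor. USP genes lay mostly in the dimmer groups, with 1 of 26 in the brightest group, and 9 of the 21 E2 genes lay in the brightest. Within the brightest group 3 of 9 E2 genes were higher. With the trend of the difference with intensity removed, 34 of 54 members were higher, where 46.7% of all genes were, and the median of the members was 0.07. These members again include Usp39 and Usp49. The part of signal strength in the shares was not tested.

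**Figure D2:**
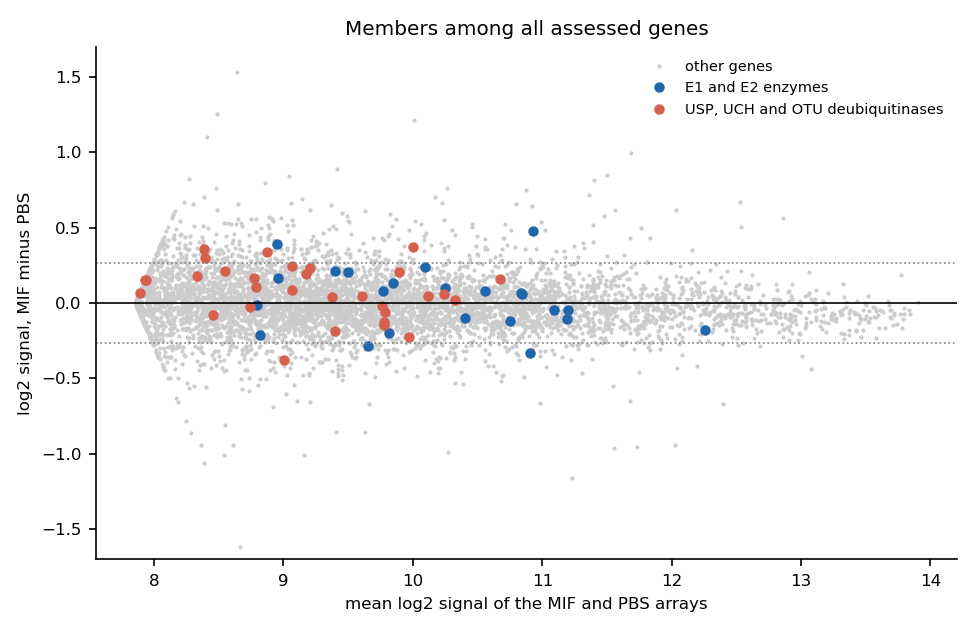
Difference in log2 signal, MIF minus PBS, (vertical axis) against the mean log2 signal of both arrays (horizontal axis), for all 5837 assessed genes, with 1 array per incubation. Members (coloured) lie within the cloud of other genes (grey), between -0.38 and 0.48, and the deubiquitinases sit mainly at low and middle signals; dotted lines mark 1.2-fold.

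The activating enzymes came first in the relay. Among E1 genes with a Uba name, 2 were assessed, and they went in opposite directions. Uba1y was under the floor on both arrays. Uba7, which activates the interferon-induced modifier ISG15, had a signal of 728 on the MIF array and 887 on the PBS array, 1.22-fold lower with a log2 difference of -0.28. A second probe set of Uba7 was also lower, at 435 on the MIF array and 511 on the PBS array (-0.23). Averaged over its 3 probe sets the difference was -0.21, within 1.2-fold. Uba3, the catalytic subunit of the NEDD8-activating enzyme, was at 1191 on the MIF array and 1007 on the PBS array (0.24). All 3 probe sets of Uba3 were higher on the MIF array, the other two by 0.13 each.

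Further genes of those relays were set beside their E1. In the ISG15 pathway, the E2 gene Ube2l6 was under the floor on both arrays, and the ISG15-specific protease gene Usp18 was at 916 on the MIF array and 902 on the PBS array (0.02). In the NEDD8 pathway, Nae1, which encodes the partner subunit of Uba3, was lower, at 1112 on the MIF array and 1275 on the PBS array (-0.20). Nedd8 itself was at 2570 on the MIF array and 2810 on the PBS array (-0.13). The NEDD8 E2 gene Ube2f had no settled direction. Its brightest probe set, which can cross-hybridise, gave 0.21 (777 on the MIF array and 672 on the PBS array), a second one of that kind gave 0.14, and the remaining pair gave -0.09 and -0.36.

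Among E2 enzymes of ubiquitin, 18 of 20 genes were assessed, 9 higher and 9 lower on the MIF array, with a median log2 difference of 0.02. The Ube2d genes encode closely related E2 enzymes that work with a wide range of RING ligases. Ube2d2a had the largest difference of the 54 assessed members, with a signal of 2301 on the MIF array and 1650 on the PBS array, 1.39-fold higher (0.48). The remaining 3 probe sets of Ube2d2a, all above the floor, gave only 0.13, 0.05 and 0.0004, and the mean over its 4 probe sets was 0.16, within 1.2-fold. Ube2d1 was at 527 on the MIF array and 470 on the PBS array (0.16). For Ube2d3 the brightest probe set was lower, at 4602 on the MIF array and 5217 on the PBS array (-0.18), but of its 6 probe sets above the floor the values ran from -0.18 to 0.25. No direction can be read for Ube2d3, and the large value of Ube2d2a rests on 1 of its probe sets.

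Ube2w, whose human counterpart attaches ubiquitin to the amino terminus of proteins, was at 566 on the MIF array and 432 on the PBS array, 1.31-fold higher (0.39). Its second probe set lay under the floor, and the difference was 0.18 under a floor at the 60th percentile. Ube2z, an E2 that receives its modifier from the E1 enzyme Uba6, was at 965 on the MIF array and 880 on the PBS array (0.13). This E2 also carries the ubiquitin-like protein FAT10, whose gene Ubd is induced by interferon gamma. Ubd was at 145 on the MIF array, under the floor, and 398 on the PBS array, which made it at least 1.72-fold lower on its single probe set. With its MIF signal below the floor, Ubd could only come out lower. The 0.13 of Ube2z is smaller than the SD of 0.15 between probe sets of the same gene. No contrast between the modifier and its E2 is therefore read from these signs.

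Some E2 enzymes are known for their part in cell division. Ube2s, which lengthens ubiquitin chains on proteins marked by the anaphase-promoting complex in mitosis, was at 1715 on the MIF array and 2155 on the PBS array, 1.26-fold lower (-0.33). The one probe set of Ube2s can cross-hybridise. Ube2c, the E2 that starts those chains, is outside the members but was in a list of related enzymes, and it was at 1359 on the MIF array and 1819 on the PBS array (-0.42). Ube2t, an E2 of DNA crosslink repair, was under the floor on both arrays. Ube2r2, a relative of the cell cycle enzyme Cdc34 that serves cullin ligases, was at 843 on the MIF array and 966 on the PBS array (-0.20). Cdc34 was at 916 on the MIF array and 994 on the PBS array (-0.12).

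E2 enzymes that act at the endoplasmic reticulum, where misfolded proteins are drawn out for degradation, were split. Ube2g2 was at 420 on the MIF array and 486 on the PBS array (-0.21), which turned to 0.05 when averaged with a probe set under the floor. Its relative Ube2g1 was at 1256 on the MIF array and 1174 on the PBS array (0.10). Ube2j1 and Ube2j2, which are anchored in that membrane, differed by -0.02 and -0.10. The ligase gene Syvn1 of the same route was 1.23-fold higher (0.30), at 413 on the MIF array and 335 on the PBS array, and Vcp, which extracts the proteins, differed by -0.04.

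The other E2 genes of ubiquitin lay within 1.1-fold. Ube2a and Ube2b, the homologues of yeast Rad6 that act in DNA damage tolerance and on histones, differed by -0.05 and 0.08. The value for Ube2a came from 2309 on the MIF array and 2388 on the PBS array. Ube2k, a chain-building E2, was at 2248 on the MIF array and 2425 on the PBS array (-0.11), or 0.16 when averaged with a probe set under the floor. Ube2e1, Ube2e3 and Ube2h had differences of 0.07, 0.06 and 0.08. Ube2n pairs with a variant that lacks the catalytic cysteine to build chains that serve in signalling rather than degradation. Ube2n was at 2153 on the MIF array and 2218 on the PBS array (-0.04), while its variants differed in sign, Ube2v1 at 1657 on the MIF array and 1800 on the PBS array (-0.12) and Ube2v2 at 726 on the MIF array and 625 on the PBS array (0.22). Each variant had a single probe set above the floor.

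The USP family is the largest among deubiquitinases, and 26 of its 32 genes in the table were assessed. Of these, 18 had higher signals on the MIF array and 8 lower, with a median log2 difference of 0.06. Without the pair that only gave a bound, 16 of 24 were higher with a median of 0.05. These shares of 69.2% and 66.7% stand beside 46.7% of all assessed genes and 46.5% of those above the floor throughout. At 1.2-fold, 3 (11.5%) were higher and 1 (3.85%) was lower, where 6.82% and 6.29% of all genes were. The genes beyond that size were not all supported by further probe sets, as given beside each.

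Usp33, which acts on the Robo1 receptor and on the deiodinase that activates thyroid hormone, was at 1168 on the MIF array and 903 on the PBS array, 1.29-fold higher (0.37) on its single probe set. Usp53, a protein found at tight junctions, was at 379 on the MIF array and 295 on the PBS array, 1.28-fold higher (0.36), also on a single probe set. Both signals of Usp53 lay near the floor, and a floor at the 60th percentile left it unassessed. Usp24, a very large member of the family, was at 373 on the MIF array and 303 on the PBS array, 1.23-fold higher (0.30), and its second probe set gave 0.12. Usp24 fell within 1.2-fold with median centring (0.26), quantile normalization (0.25) and removal of the trend with intensity (0.26).

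Usp5, which takes apart free ubiquitin chains and so returns ubiquitin for use, was at 584 on the MIF array and 493 on the PBS array (0.24). Usp8, which acts on endosomes in the sorting of receptors such as that of epidermal growth factor, was at 640 on the MIF array and 546 on the PBS array (0.23). Usp25 was at 402 on the MIF array and 348 on the PBS array (0.21). These 3 lay within 1.2-fold on 1 probe set each. Usp9x, the X-linked homologue of the fly gene fat facets, was at 616 on the MIF array and 539 on the PBS array (0.19). Of its 7 probe sets, the 4 above the floor were all higher on the MIF array, from 0.07 to 0.33, so that they shared the direction but not the size.

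Usp7, which removes ubiquitin from Mdm2 and p53, was at 1723 on the MIF array and 1541 on the PBS array (0.16). All probe sets of Usp7 can cross-hybridise. Usp43 was at 343 on the MIF array and 303 on the PBS array (0.18), and Usp21 was at 259 on the MIF array and 233 on the PBS array (0.15), next to the floor. Usp16, a deubiquitinase of histones, differed by 0.11. Usp39, a splicing factor that lacks deubiquitinase activity in human cells, was at least 1.11-fold higher, with 257 on the MIF array and 224 on the PBS array. Usp49 was at least 1.05-fold higher, with 243 on the MIF array and 208 on the PBS array. Both were assessed through the MIF array alone, so their direction was fixed by the floor.

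Several USP genes of DNA repair and signalling had nearly equal signals. Usp1, which removes ubiquitin from the repair protein Fancd2, was at 1237 on the MIF array and 1189 on the PBS array (0.06), and all 3 of its probe sets were higher, by up to 0.20. Usp15, Usp10 and Usp47 differed by 0.05, 0.04 and 0.02, and Usp34, which acts on axin in the Wnt pathway, by -0.02. A second probe set above the floor gave 0.15 for Usp47 and 0.06 for Usp34. Usp45 and Usp19 differed by -0.03 and -0.08, with 0.06 on a second probe set of Usp19. Usp12 had no settled direction, with -0.06 on its brightest probe set and 0.27 on a second one. Usp3, which acts on histones, was likewise unsettled, at -0.15 (832 on the MIF array and 921 on the PBS array) and 0.16.

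On the lower side, Usp2 had the largest difference among the deubiquitinases. Usp2, whose transcript cycles with the circadian clock in many mouse tissues, was at 452 on the MIF array and 586 on the PBS array, 1.30-fold lower (-0.38). Its second probe set was at 319 on the MIF array and 389 on the PBS array (-0.28), so both lay beyond 1.2-fold in the same direction. Under a floor at the 60th percentile the difference was -0.24, within 1.2-fold. Usp4 was at 631 on the MIF array and 719 on the PBS array (-0.19) on a single probe set. Usp48 was at 838 on the MIF array and 915 on the PBS array, and its probe sets above the floor both gave -0.13.

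The 3 members lower by 1.2-fold or more belong to separate branches, namely mitotic chain building (Ube2s), ISG15 activation (Uba7) and deubiquitination (Usp2), and their promoters are shown because these genes had the largest differences towards PBS. Usp24 is added as the only higher member past 1.2-fold with a single start in the promoter table. Each sequence is the 250 bases before the annotated start, from RefSeq on GRCm38.p6, read 5′ to 3′ on the strand of the gene. Capitals mark matches, on either strand, to GGGCGG (the GC box), CCAAT (the CCAAT box), TTTGAA (a cell cycle element) or CACGTG (the E-box of clock factors).
Ube2s, chr7:4812341-4812590, minus strand: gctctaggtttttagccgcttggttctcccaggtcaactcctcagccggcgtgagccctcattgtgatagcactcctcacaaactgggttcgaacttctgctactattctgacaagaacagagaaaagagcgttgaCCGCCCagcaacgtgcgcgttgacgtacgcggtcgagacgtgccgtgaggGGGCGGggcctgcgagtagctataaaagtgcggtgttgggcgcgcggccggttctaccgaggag
Uba7, chr9:107975317-107975566, plus strand: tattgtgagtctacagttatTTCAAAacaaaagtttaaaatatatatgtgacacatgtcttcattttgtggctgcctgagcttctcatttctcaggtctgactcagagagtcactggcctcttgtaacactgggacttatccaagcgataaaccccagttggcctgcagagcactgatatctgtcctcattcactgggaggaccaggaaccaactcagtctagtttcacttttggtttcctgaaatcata
Usp2, chr9:44084670-44084919, plus strand: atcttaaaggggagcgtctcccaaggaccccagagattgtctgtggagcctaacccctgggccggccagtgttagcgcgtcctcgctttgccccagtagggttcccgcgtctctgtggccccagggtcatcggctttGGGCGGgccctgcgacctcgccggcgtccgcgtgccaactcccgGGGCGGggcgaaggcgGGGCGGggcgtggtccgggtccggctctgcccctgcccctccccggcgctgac
Usp24, chr4:106315963-106316212, plus strand: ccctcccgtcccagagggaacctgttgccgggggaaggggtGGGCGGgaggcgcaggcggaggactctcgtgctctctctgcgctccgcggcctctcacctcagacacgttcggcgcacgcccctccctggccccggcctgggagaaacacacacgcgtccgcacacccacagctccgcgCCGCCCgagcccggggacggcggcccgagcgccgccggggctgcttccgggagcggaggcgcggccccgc
GC boxes were matched 2 times in Ube2s, 3 times in Usp2, 2 times in Usp24 and not in Uba7. Among all 32851 promoter windows of that length, 32.7% held a GC box. In Uba7 the only match was to TTTGAA, 230 bases before the start, and 16.0% of all windows held that motif. No other motif was matched in these 4 windows; 33.8% of all windows held CCAAT and 6.02% CACGTG. The window of Uba7 had a G and C content of 42.0% with 1 CpG, against 58.4% with 23 in Ube2s, 71.6% with 25 in Usp2 and 76.8% with 33 in Usp24. The median of all windows was 52.4% with 6 CpG. A match is a description of letters and says nothing of binding. Promoters were found for 52 of the 68 members (76.5%), under the limit of 80%, so no share over the members is given.

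Deubiquitinases bound to the proteasome differed in sign on their brightest probe sets. Usp14, which trims chains at the proteasome, was at 1128 on the MIF array and 1092 on the PBS array (0.05), and its second probe set above the floor gave 0.17. A further probe set of Usp14, under the floor, was at 152 on the MIF array and 187 on the PBS array. Uchl5, the only assessed UCH gene, acts at the same place and was at 928 on the MIF array and 1084 on the PBS array (-0.22), which became 0.0035 when averaged with a probe set under the floor. Psmd14, the metalloprotease of the proteasome lid, which has another name and is outside the members, was 1.24-fold lower (-0.31), at 3268 on the MIF array and 4056 on the PBS array. Psmd4, a ubiquitin receptor of the proteasome, was at 1851 on the MIF array and 2139 on the PBS array (-0.21). A second probe set of Psmd4 gave -0.09. Among all assessed genes 46.7% were higher, and 36.9% were in the brightest group by signal, where Psmd14 and Psmd4 lie. Psmd4 was also named after its value was seen, so nothing is read from the signs of these 4 genes as a set.

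All 4 assessed OTU genes, of 7 in the table, were higher on the MIF array, with a median of 0.19. Among all assessed genes 46.7% were higher. Otub1 (201 on the MIF array and 223 on the PBS array), Otub2 (30 and 31) and Otud7b (112 and 133) lay under the floor. The shared direction thus covers only the OTU genes that passed the floor. Otud5, a negative regulator of type I interferon production that acts on Traf3, was at 527 on the MIF array and 416 on the PBS array, 1.27-fold higher (0.34). Its second probe set was below the floor, the mean of the pair was 0.25, and under a floor at the 60th percentile the difference was 0.08. Otud4 was at 1021 on the MIF array and 886 on the PBS array (0.20), with 0.28 on a second probe set. Otulin, which cleaves linear ubiquitin chains and so restrains NF-kB signalling, was at 463 on the MIF array and 413 on the PBS array (0.17). Otud6b was at 554 on the MIF array and 521 on the PBS array (0.09). Rbck1, a subunit of the ligase that builds the linear chains, was at 752 on the MIF array and 851 on the PBS array (-0.18).

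Probe sets of a gene gave the one check these arrays allow. Of the 21 members with several probe sets above the floor, 15 had all of them in a single direction, 9 higher and 6 lower on the MIF array. The same share over all 1800 genes with several such probe sets was not computed. The 15 are therefore not read as support for a difference. In the other 6 the direction was mixed, and in 4 of these, Ube2d3, Ube2f, Usp3 and Usp12, probe sets of opposite sign lay at least 0.26 apart. Probe sets of a gene share the RNA and the array, and measure hybridisation and transcript ends, not the spread between cell preparations.

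**Figure D3:**
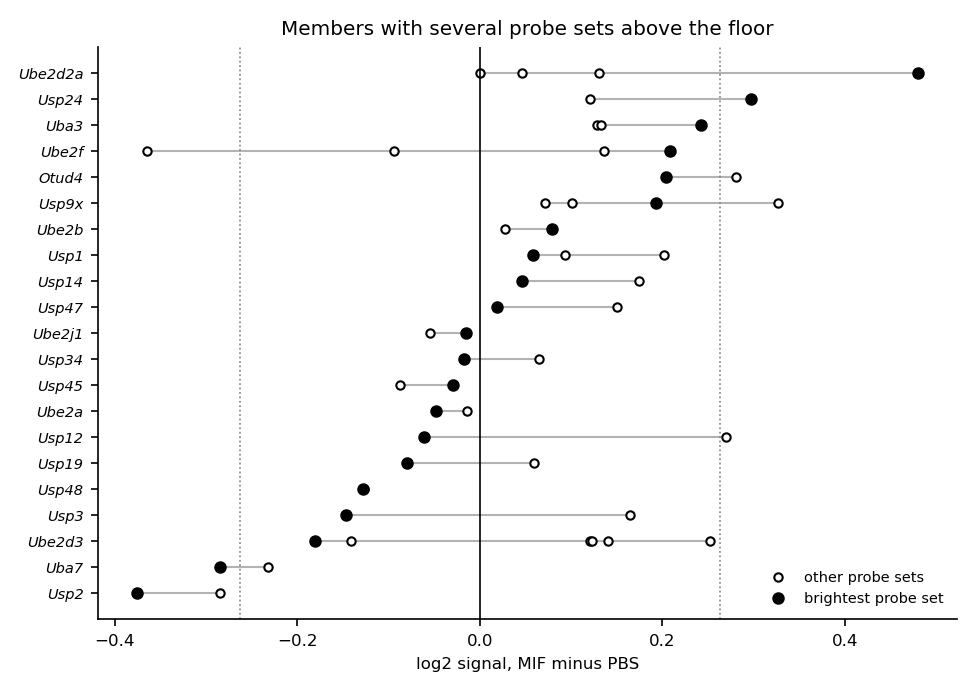
Difference in log2 signal, MIF minus PBS, (horizontal axis) for each probe set whose signals both exceeded the floor, in the 21 members with several. Filled points are the brightest probe set of a gene and open points the others, with a grey line over their range and dotted lines at 1.2-fold; Usp2 and Uba7 lie wholly on the PBS side, Usp9x and Uba3 wholly on the MIF side, and Ube2f and Ube2d3 span 0.

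The rest of the ubiquitin system was read from 7 lists of genes outside the naming rule. Over the 147 assessed genes of these lists, 72 were higher and 75 lower on the MIF array, with a median log2 difference of -0.0025. The higher genes include Fbxo32, Cbl, Ring1, Ube4a and Ubr1, which passed the floor on the MIF array alone. The lower genes include Ubd and Trim21, which passed it on the PBS array alone. The direction of all these was fixed by the floor, and the counts of single lists include them. At 1.2-fold, 7 listed genes (4.76%) were higher, Ube4a among them, and 4 (2.72%) lower, Ubd among them. Of all genes, 6.82% and 6.29% were. Ligases had medians near 0. HECT and RBR ligases had 10 of 20 higher (median -0.01), with Wwp1 1.24-fold higher (0.31), at 702 on the MIF array and 564 on the PBS array, and all 3 of its probe sets higher. Cullin ligase core genes had 11 of 19 higher (0.02) and none past 1.2-fold. Other RING and U-box ligases had 20 of 39 higher (0.0021), with Ube4a at least 1.48-fold higher, from 342 on the MIF array and 217, under the floor, on the PBS array, and Rnf138 higher by 0.27 beside Syvn1. Rnf138 fell within 1.2-fold with median centring (0.23), quantile normalization (0.24) and removal of the trend with intensity (0.24), and Syvn1 with median centring (0.26). Ubiquitin receptors and partners of Vcp had 11 of 22 higher (0.01).

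Enzymes of the same kinds also exist under other names. E1 and E2 enzymes named otherwise had 2 of 9 higher, with a median of -0.10. At 1.2-fold, Birc6, a giant E2 and ligase that restrains apoptosis, was 1.38-fold higher (0.46), at 860 on the MIF array and 625 on the PBS array, and Ube2c, given above, was 1.34-fold lower. The other probe sets of Birc6 lay under the floor. Deubiquitinases and deconjugases named otherwise had 15 of 26 higher, with a median of 0.01. Stambpl1, a relative of the endosomal deubiquitinase Stambp, was 1.29-fold higher (0.37) at 365 on the MIF array and 283 on the PBS array, and the SUMO protease gene Senp6 was higher by 0.27, at 712 on the MIF array and 593 on the PBS array. Eif3f, a translation factor subunit of the same protease fold as Psmd14, was 1.22-fold lower (-0.29), at 5948 on the MIF array and 7259 on the PBS array. Senp6 fell within 1.2-fold with median centring (0.23), quantile normalization (0.24) and removal of the trend with intensity (0.25). Eif3f did so with quantile normalization (-0.24) and removal of that trend (-0.23). Modifiers themselves had 3 of 12 higher, with a median of -0.07. Ubd, whose direction was fixed by the floor, was the only one past 1.2-fold.

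**Figure D4:**
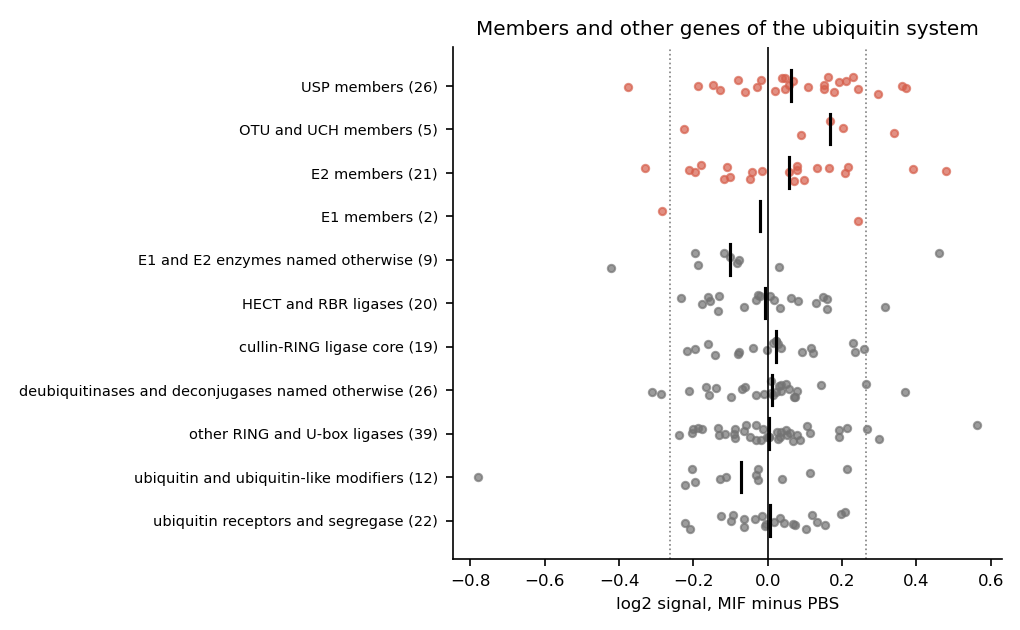
Difference in log2 signal, MIF minus PBS, (horizontal axis) for assessed genes of each member role (red) and of 7 lists of other ubiquitin system genes (grey), with the number of genes in brackets. Each point is a gene, scattered vertically for legibility, black bars are medians and dotted lines mark 1.2-fold; the medians run from -0.10 for E1 and E2 enzymes named otherwise to 0.17 for the OTU and UCH members.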

How the data were processed

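Labels give 1 array per incubation. The deposited intensity of each probe set is linear, as judged from the values. The authors' summarising, background correction and scaling are not stated in the labels used. Of 15340 probe sets, 61 array controls were left out. GEO's platform annotation, which can be old, gave 14049 of the others 1 symbol, 490 several and 740 none; those with several or none stayed unnamed, among them 8 whose symbols include a name of the kind examined. Symbols were updated by Entrez ID for 14034.

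Log2 was taken after the floor. The members and lists were chosen with earlier results of these data known. Genes named were members past 1.2-fold, the 4 largest differences per role and direction, the 6 brightest, bounds, opposed probe sets and listed genes past 1.2-fold. Other members and Nae1, Nedd8, Usp18, Cdc34, Vcp, Psmd4 and Rbck1 were named after their values were seen. Motifs were also chosen then. Steps were tested on simulated data. The planted differences were larger than that of any member, lay in genes well above the floor and had less noise than probe sets show here. The simulation thus says nothing of calls near 1.2-fold. The number of arrays limits the precision. Alternatives covered scaling, floor, probe sets and threshold. Tools were Python 3.11.15 with matplotlib 3.10.9, statsmodels 0.14.6, pandas 2.3.3 and numpy 2.4.6.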

Additional observations from a re-analysis of the deposited data

How the results depend on the processing

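The counts of 6 higher and 3 lower members at 1.2-fold depended on threshold and floor. They were 20 and 9 at 1.1-fold and 0 and 0 at both 1.5-fold and 2-fold. The 20 include Usp39, whose direction was fixed by the floor. With the floor at the 60th percentile, 2 members were higher and 2 lower of 41 assessed (4.88% each), where 4.94% and 5.49% of all genes were. With no floor 9 were higher and 5 lower of 68 (13.2% and 7.35%), where 15.6% and 10.3% of all genes were. In the remaining alternatives the higher count ran from 4 to 7 and the lower count from 2 to 3. Averaging probe sets kept 5 of the 9 members past 1.2-fold, and Ube2d2a, Otud5, Uba7 and Usp24 fell within it. The median of the members was above 0 in all 8 alternatives to the deposited columns, from 0.04 with median centring to 0.08 with averaged probe sets, and the share of members higher ran from 61.0% to 72.0%, against 37.9% to 50.8% of all genes. Of 248 values of the 32 members named by the rules given above, 14 moved by more than the SD of 0.15 between probe sets. None of these members past 1.2-fold changed sign. Members named after their values were seen are not part of these counts. Averaging turned the sign of 7 of these 32 members, all within 1.2-fold. Ube2d3, Ube2f, Usp3 and Usp12 had probe sets of opposite sign above the floor. The other probe set of Ube2g2, Ube2k and Uchl5 lay under the floor. Leaving out cross-hybridising probe sets removed Ube2s and Usp7 and turned Ube2f to -0.09. No paired analysis was possible because each incubation has 1 array. Signals under the floor, 14 members here, carry no direction.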
